A study of Mus musculus with 10 samples.

Results

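The genes described here encode the enzymes of active DNA demethylation and the base excision repair proteins that work with them. They are Tet1, Tet2, Tet3, Tdg, Mbd4, Smug1, Ung, Neil1, Apex1 and Xrcc1, chosen by name, and all 10 were found among the 24814 genes of a table of transcript abundances. Cortices of embryonic day 12 mice gave 10 libraries, all made from polyadenylated RNA. The 5 WT libraries were Emx1 Cre/+; Zbtb7a +/+ and the 5 cKO (conditional knockout) libraries were Emx1 Cre/+; Zbtb7a fl/fl, so the Cre driver was present in both groups. Zbtb7a encodes a zinc finger transcription factor, and Emx1-Cre acts in progenitors of the dorsal telencephalon and their descendants, so other cells of the tissue keep the floxed gene intact. Of the 3 litters, the first (litter 1) held WT 1, WT 2 and cKO 1 to cKO 3. WT 3, WT 4 and cKO 4 came from litter 3, and WT 5 with cKO 5 from litter 5. These labels were followed, although the text of the series speaks of 3 cortices per condition and of 2 litters.

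Methyl groups on cytosine are removed actively in steps. The TET dioxygenases oxidise 5-methylcytosine to 5-hydroxymethylcytosine and on to formylcytosine and carboxylcytosine, and TDG (thymine DNA glycosylase) cuts out the last pair of these bases. The empty site is then opened by the endonuclease APEX1, and the gap is filled and sealed by repair complexes built on the scaffold XRCC1. 5-hydroxymethylcytosine is more abundant in the brain, and above all in neurons, than in most other tissues.

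Values are TPM (transcript abundance per fixed library total), which divides reads by transcript length and scales each library to a total of 1000000, so levels of different genes can be compared, but the read depth behind them is unknown. The cortex markers Emx1, Emx2, Pax6, Eomes and Tbr1 were above 1 TPM in every library. Zbtb7a ranged from 7.20 to 12.5 TPM in WT and from 3.50 to 5.96 TPM in cKO, with no overlap, but its log2 difference of -0.99 (SE 0.19) was not called (limma adjusted p = 0.615). That difference was -1.29 in litter 1, -0.26 in litter 3 and -1.23 in litter 5, and it was called when cKO 4 was left out (-1.27, adjusted p = 0.0277). Summed levels of markers of other cells varied between libraries, from 1.29 to 164 TPM for 8 genes of the ventral telencephalon and from 4.00 to 775 TPM for 6 genes of the choroid plexus, and no marker of these 2 lists was called between genotypes. Globin transcripts took 5.21% and 5.37% of the total in WT 3 and WT 4, 3.87% in cKO 4, and 1.68% to 2.32% in the other libraries. In tissue RNA, fewer cells of a type and less RNA per cell cannot be told apart.

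In WT cortex the levels of the 10 genes ran from Apex1, the highest, to Neil1, the lowest. Apex1 had 280 ± 30.0 TPM (SD, n = 5), followed by Tdg with 226 ± 24.4, Xrcc1 with 72.4 ± 15.3 and Ung with 51.2 ± 6.91. Tet3 had 27.5 ± 10.7 TPM and Smug1 23.2 ± 2.01. Below them came Mbd4 with 10.8 ± 2.08, Tet1 with 8.58 ± 2.89, Tet2 with 5.40 ± 1.17 and Neil1 with 2.08 ± 0.694. The WT ranges of neighbours in this order did not overlap between Tdg and Xrcc1, Ung and Tet3, Smug1 and Mbd4, or Tet2 and Neil1, and they overlapped for the other neighbours. Apex1 was nevertheless above Tdg in 5 of 5 WT libraries, and Xrcc1 above Ung in 5 of 5, while Tet3 was above Smug1 in 3 of 5.

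**Figure D1:**
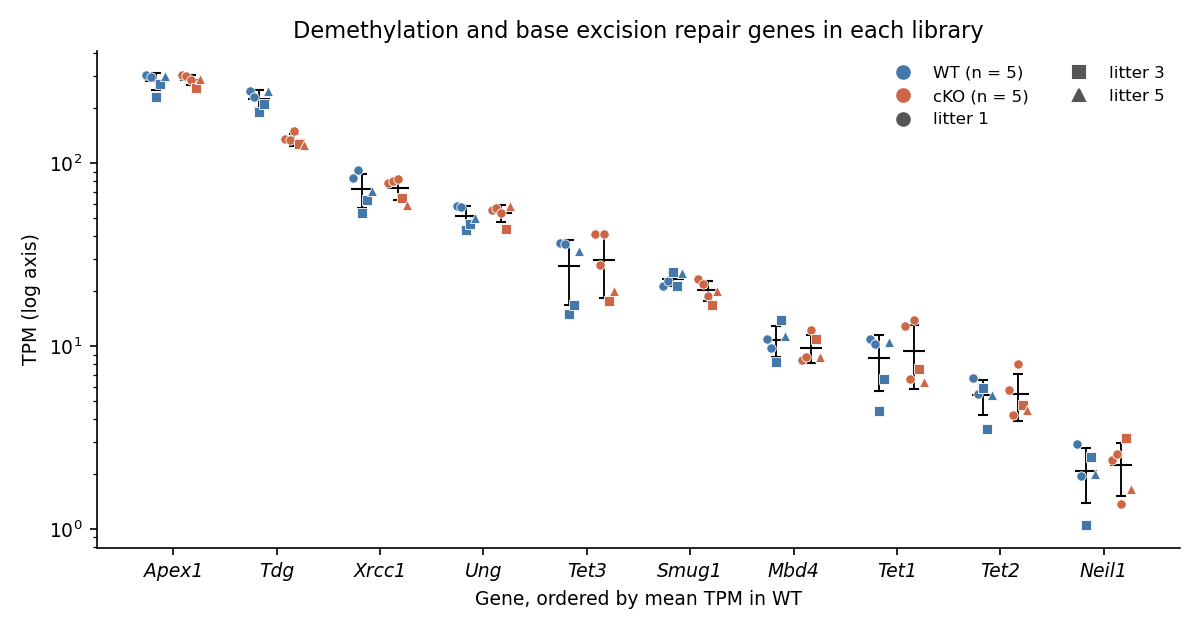
TPM (log axis) of the 10 genes in each library, with WT in blue, cKO in orange and the litter by symbol. Black bars give the mean ± SD of 5 libraries. Tdg is the gene whose WT and cKO points stand apart, and the squares of litter 3 lie low for Tet3, Tet1 and Xrcc1.

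Of the 10 genes, Tdg was called lower in cKO and the other 9 were not called between genotypes. A call is an adjusted p under 0.05 by limma, with Benjamini-Hochberg adjustment over the 13833 genes that passed a filter on low values, which all 10 passed. In that comparison 0.0361% of all genes tested were called, and 0.0289% were called lower in cKO. The median log2 difference of the 10 genes was -0.07, and 9 of 10 lay below 0, beside a median of -0.01 over all genes tested, of which 7742 lay below 0. Apart from Tdg, Mbd4 and Smug1, each of the 10 genes changed sign under at least 1 other setting of the fit.

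Tdg, on chromosome 10 (82629828 to 82650799, GRCm38, plus strand), removes thymine, formylcytosine and carboxylcytosine from DNA. Its level was 247, 231, 192, 210 and 248 TPM in WT 1 to WT 5 and 135, 134, 150, 127 and 126 TPM in cKO 1 to cKO 5. Every cKO library was below every WT library, which held for 0.282% of all genes tested in either direction and for 0.0867% with cKO lower. The mean in cKO was 0.596 times that in WT, a log2 difference of -0.78 (SE 0.07, 95% interval -0.93 to -0.63; limma adjusted p = 0.00183). The difference was -0.77 in litter 1, -0.66 in litter 3 and -0.97 in litter 5. With litter 1 alone (adjusted p = 0.131), or litters 3 and 5 alone (adjusted p = 0.800), the size of the difference was kept and the limma call was lost. In the authors' deposited table of 7 genes, Tdg has a log2 fold change of -1.63 (SE 0.0766, adjusted p = 4.34e-96), a larger fall than in the TPM values, and no other of the 10 genes is in that table. The libraries and covariates behind the authors' deposited table are not given in the sources, so its samples may differ from the 10 libraries used here. Its fold change, taken here as log2, comes from the authors' own test. It may thus rest on another measure than log2(TPM + 1) and on another treatment of reads that match several places.

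Tdg has processed copies elsewhere in the genome, pseudogenes with a single exon where the Tdg transcript has 10. Gm9855 lies on the same chromosome as Tdg, at 42054113 to 42055306 on the minus strand (1194 bases). Gm5597 lies on chromosome 7 (76244746 to 76245938, 1193 bases), and Gm5806, named Tdg-ps in the GENCODE annotation, on chromosome 15 (82516311 to 82519278, 2968 bases). Over the 1263-base Tdg coding sequence, Gm9855 could be compared from position 73 to the end and differs at 9 of 1191 bases, counting positions from 1 at the first base of the start codon. Gm5597 differs at 8 of 1190 bases and Gm5806 at 17 of 1263. In all, 25 positions differ in at least 1 copy, and 4 of them differ in all 3 copies.

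The stretch of 72 coding bases where Gm9855 differs most from Tdg is shown, because within the shared sequence such bases tell reads of the genes apart. It is coding positions 1124 to 1195 in exon 10 of Tdg, chr10:82648578-82648649 (plus strand), and the matching bases are chr10:42054184-42054255 (minus strand) in Gm9855, chr7:76244817-76244888 (minus strand) in Gm5597 and chr15:82517535-82517606 (plus strand) in Gm5806, all in GRCm38 and read 5′ to 3′ along the gene. Capitals in the Tdg line mark bases that differ in any of the copies, and capitals in a copy mark its own differences from Tdg.
Tdg: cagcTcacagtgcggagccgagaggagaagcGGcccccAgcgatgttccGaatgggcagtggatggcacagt
Gm9855: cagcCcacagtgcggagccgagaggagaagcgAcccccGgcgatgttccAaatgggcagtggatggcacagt
Gm5597: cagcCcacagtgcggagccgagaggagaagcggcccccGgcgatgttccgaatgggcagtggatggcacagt
Gm5806: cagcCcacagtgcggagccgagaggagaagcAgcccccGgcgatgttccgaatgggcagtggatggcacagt
T1128C and A1162G are shared by all 3 copies, G1156A and G1173A are carried by Gm9855, and G1155A by Gm5806. Outside this stretch Gm9855 carries A170C, A927G, G949A, G951C and T1065C, so no base separates it from Tdg between positions 170 and 927. Of all windows of 50 bases in the Tdg coding sequence, 71.9% are found letter for letter in Gm9855 and 85.8% in at least 1 of the copies compared. For windows of 100 bases the shares are 57.6% and 66.9%. These shares are of the coding sequence alone, and the Tdg transcript has 3502 bases. Gm9855 and Gm5597 each match 34.1% of that transcript and Gm5806 matches 84.75%, so most of it has no counterpart in Gm9855. In the other direction, 14.7% of the 50-base windows of Gm9855 and 30.3% of its 100-base windows had no match. They occur in no Tdg transcript and in no other copy compared. Only copies that appear in the deposited data were compared, so other matching genes are left out of all these shares.

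**Figure D2:**
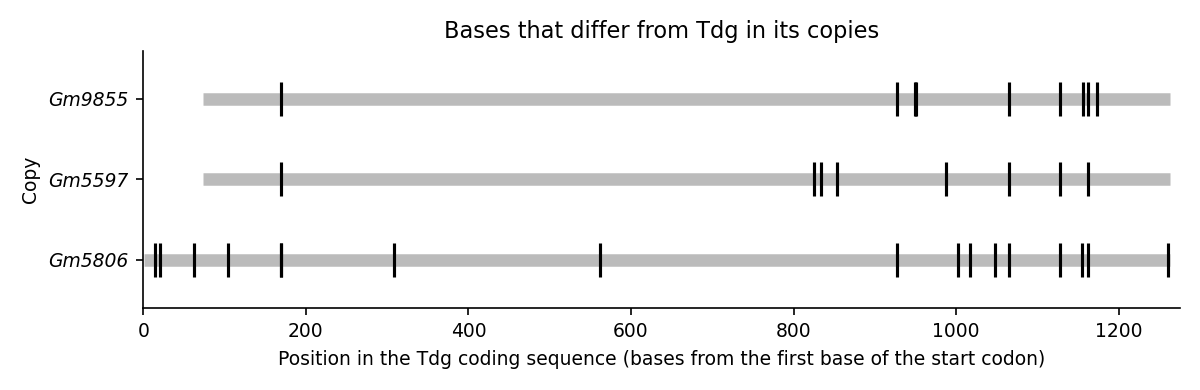
Positions (in bases from the start codon) at which the copies Gm9855, Gm5597 and Gm5806 differ from the Tdg coding sequence. Grey bars give the span compared and black ticks the 9, 8 and 17 differing bases. A long middle stretch of Gm9855 holds no tick.

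The copy Gm9855 rose in the cKO libraries as Tdg fell. It had 9.99, 12.7, 8.27, 12.9 and 14.0 TPM in WT 1 to WT 5 and 127, 131, 136, 113 and 115 TPM in cKO 1 to cKO 5, a log2 difference of 3.30 (SE 0.13; limma adjusted p = 3.09e-06). In each cKO library Gm9855 was thus close to the level of Tdg. The ratio of Gm9855 to Tdg was 0.0405 to 0.0615 in the WT libraries and 0.893 to 0.975 in the cKO libraries.

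Gm5597 had 1.17, 1.91, 2.68, 2.58 and 1.57 TPM in WT 1 to WT 5 and is listed at 0 in every cKO library (adjusted p = 0.0186 by limma, which rose above the threshold, to between 0.0658 and 0.173, when any library other than WT 1 was left out). Gm5806 ranged from 0.97 to 1.60 TPM in WT and from 2.34 to 3.05 TPM in cKO. These ranges did not overlap, with a log2 difference of 0.79 (SE 0.15; limma adjusted p = 0.615), which did not pass. In the authors' deposited table Gm5806 has a log2 fold change of -3.41 (SE 0.603, adjusted p = 7.29e-05), the opposite direction to the TPM values. The same doubts hold about which libraries and which measure stand behind it. The same deposited table gives Gm9855 a log2 fold change of 5.86 (SE 0.154) and lists a 4th copy, AC122846.1, at -5.34 (SE 1.07), so 4 of its 7 genes are Tdg or a copy of it. AC122846.1 has 213 bases, of which 203 align to Tdg at 99.0% identity, and it was not analysed here in TPM.

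Because reads of these copies can be assigned to more than one of them, the 4 genes of the TPM table were also summed. Of their summed TPM, Tdg made up 93.8% ± 0.874 in the WT libraries and 51.4% ± 0.864 in the cKO libraries (SD, n = 5), with a range of 92.7% to 95.1% in WT and of 50.1% to 52.2% in cKO. The difference was -42.4 percentage points. A two-sided exact permutation test gave p = 0.00794 over all splits into 5 and 5 and p = 0.0167 over the arrangements that keep the litters. Each is the smallest p the design can give. The share is formed from the levels of Tdg and Gm9855, which already stood apart, so this test restates their separation. The summed TPM was 240 ± 25.1 in WT and 262 ± 19.1 in cKO, a difference of 21.2 that did not pass (exact permutation p = 0.167, within litters 0.217).

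When each TPM was first multiplied by the length of the longest annotated transcript, the direction turned. Such a sum follows reads rather than molecules only if TPM was formed with these lengths, which the sources used here do not state. That sum, in units of Tdg-length TPM, was 231 ± 24.7 in WT and 179 ± 12.9 in cKO (difference -52.1, exact permutation p = 0.0159, within litters 0.0167). The share of Tdg was then 97.6% ± 0.304 in WT and 75.0% ± 0.637 in cKO (SD, n = 5). The sources used here do not state how reads that match several places were treated, and its part in the levels of Tdg and its copies was not tested.

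**Figure D3:**
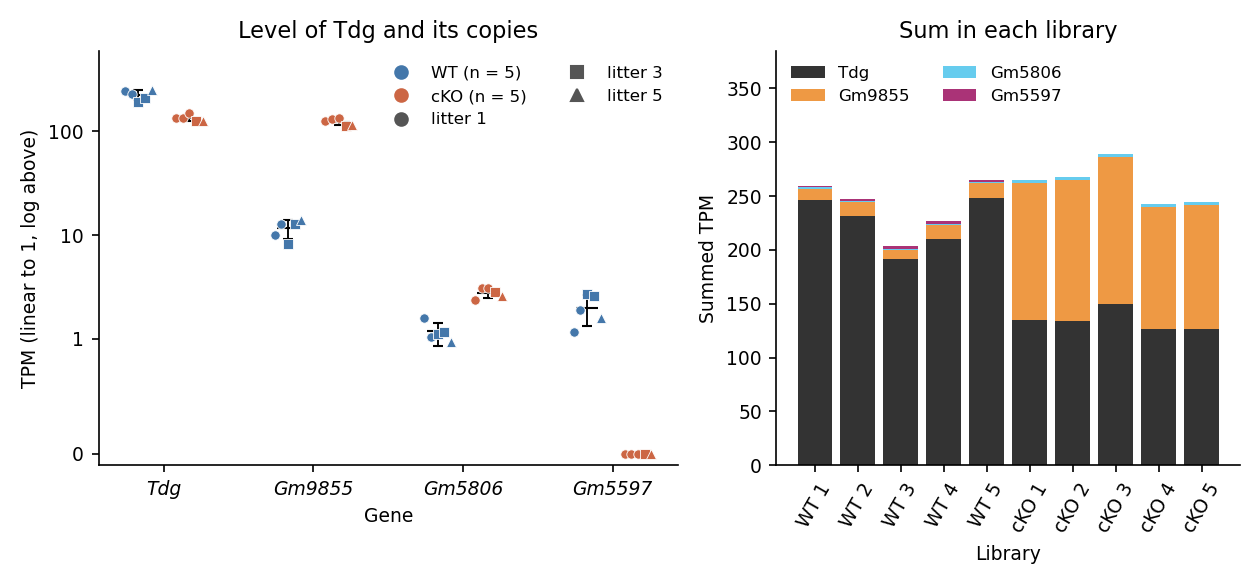
On the left, TPM of Tdg and its copies in each library (axis linear to 1 and log above; WT blue, cKO orange, litter by symbol, black bars mean ± SD of 5 libraries). On the right, the stacked TPM of the 4 genes in each library, where Tdg fills nearly the whole bar in WT and 50.1% to 52.2% of it in cKO.

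Within 500 kb of Tdg 11 genes were tested, 0 were called by limma, 2 had an unadjusted p under 0.05, 5 were lower and 6 higher in cKO. Over all 13833 genes tested, 324 had an unadjusted limma p under 0.05. Gm4924 had a log2 difference of 0.62 (SE 0.13), the long noncoding RNA AC158605.1 of -1.02 (SE 0.29) and 1190007I07Rik of -0.31 (SE 0.17), with limma adjusted p-values of 0.783 for the first and 1.00 for the others. The tested genes whose log2 level followed Tdg most closely over the 10 libraries were Gm3055 (Pearson r = 0.96), Gm32687 (0.95), Zbtb7a (0.92), Hyal1 (0.90) and 6720489N17Rik (0.88), and those that ran most opposite were Rcbtb2 (-0.96), Gm4924 (-0.93) and Gm9855 (-0.92). Of these 8 genes, Gm3055, Gm32687, Zbtb7a, Gm4924 and Gm9855 lie on chromosome 10, as Tdg does, and Zbtb7a is at 81135220 to 81152995. The share of all genes tested that lie on chromosome 10 was not counted, so no excess is claimed. Loss of Zbtb7a cannot be told apart here from any other difference between the genotypes, such as one on chromosome 10 near the floxed gene. The part of either in the levels of Tdg and Gm9855 was not tested. The libraries form separate genotype groups for Tdg, so each r describes that separation and was given no test.

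No TET gene was called between genotypes, and the ranges of WT and cKO overlapped for each of them. Tet3 (chromosome 6, 83362373 to 83459084), the most abundant of them, had 36.5, 36.0, 15.1, 16.8 and 33.15 TPM in WT 1 to WT 5 and 41.05, 27.65, 41.1, 17.6 and 19.9 TPM in cKO 1 to cKO 5. The low libraries were the 3 of litter 3, in both genotypes, and cKO 5, whereas WT 5 of the same litter as cKO 5 was not low. The log2 difference of Tet3 between genotypes was -0.11 (95% interval -0.46 to 0.23; limma adjusted p = 1.00).

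Tet1 (chromosome 10, 62804570 to 62908996) had 10.95, 10.3, 4.45, 6.64 and 10.6 TPM in WT 1 to WT 5 and 12.8, 6.64, 13.8, 7.47 and 6.35 TPM in cKO 1 to cKO 5. The genotypes overlapped over most of their range, and the log2 difference was -0.03 (95% interval -0.53 to 0.48). Tet2 (chromosome 3, 133463679 to 133545139), which unlike the other TET proteins lacks its own CXXC DNA-binding domain, had 3.53 to 6.71 TPM in WT and 4.23 to 8.04 TPM in cKO, a log2 difference of -0.06 (95% interval -0.47 to 0.36). For both genes the limma adjusted p was 1.00.

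The sex of the embryos was not balanced between the genotypes. Xist, the RNA of the inactive X chromosome, had 20.4 TPM in WT 3, 28.9 in cKO 1, 39.1 in cKO 3, 70.5 in cKO 4 and at most 0.01 in the other libraries. With Xist as a covariate the log2 difference between genotypes was -0.31 for Tet1, -0.38 for Tet2 and -0.35 for Tet3 (limma adjusted p = 0.852 for each), and these were still not called.

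Tet3 made up 59.0% to 71.8% of the summed TPM of the 3 TET genes in every library, Tet1 17.2% to 25.0% and Tet2 9.63% to 23.1%. The summed TET level itself ran from 25.4 to 62.9 TPM over the 10 libraries. Tet3 made up 65.2% ± 4.26 in WT and 65.9% ± 4.81 in cKO (SD, n = 5). By litter, the Tet3 share was 65.3% to 71.8% in litter 1, 59.0% to 62.2% in litter 3 and 64.8% to 67.4% in litter 5. The Tet2 share was 9.63% to 12.8% in litter 1 and 13.1% to 23.1% in litter 3, and the Tet1 share overlapped between these litters.

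Among the other glycosylases, none was called between genotypes. Smug1 (chromosome 15, 103153290 to 103167092), which removes uracil and hydroxymethyluracil, had 21.4, 22.7, 25.6, 21.3 and 25.1 TPM in WT 1 to WT 5 and 23.3, 22.0, 18.8, 16.9 and 20.1 TPM in cKO 1 to cKO 5. By litter its log2 difference was -0.05 in litter 1, -0.45 in litter 3 and -0.31 in litter 5. The share of all genes tested with the same sign in each litter was not counted. The genotypes overlapped, and the log2 difference of -0.22 (SE 0.11, 95% interval -0.46 to 0.02) did not pass (limma unadjusted p = 0.0734, adjusted p = 1.00). Mbd4 (chromosome 6, 115840697 to 115853371), which binds methylated CpG sites and removes thymine from T:G mismatches, had 8.22 to 13.8 TPM in WT and 8.44 to 12.3 TPM in cKO, a log2 difference of -0.11 (95% interval -0.48 to 0.25).

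Ung (chromosome 5, 114130386 to 114139323), the main uracil glycosylase of replicating DNA, had 43.0 to 58.7 TPM in WT and 43.8 to 58.7 TPM in cKO. Its log2 difference was -0.00 (95% interval -0.16 to 0.16), the smallest of the 10 genes. Neil1 (chromosome 9, 57142800 to 57148305), which removes oxidised bases, was close to the filter with 1.05 to 2.91 TPM in WT and 1.37 to 3.15 TPM in cKO, a log2 difference of 0.07 (95% interval -0.45 to 0.58). Tdg thus remained the most abundant of the 5 glycosylases in every library, at 126 TPM or more against 58.7 TPM or less for Ung.

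The downstream repair genes were not called between genotypes. Apex1 (chromosome 14, 50924968 to 50927139) had 303, 295, 231, 273 and 299 TPM in WT 1 to WT 5 and 304, 298, 284, 258 and 289 TPM in cKO 1 to cKO 5, a log2 difference of -0.01 (95% interval -0.14 to 0.12; limma adjusted p = 1.00). It varied least of the 10 genes over all libraries, with a coefficient of variation of 8.27%, against 36.4% for Tet3, the most variable. Apex1 exceeded Tdg 1.20 to 1.30 times in the WT libraries and 1.89 to 2.29 times in the cKO libraries. Its transcript overlaps that of Tmem55b on the opposite strand over 688 bases, and the sources used here do not state whether strand was used in counting. Tmem55b had 47.9 ± 7.15 TPM in WT and 48.9 ± 3.83 TPM in cKO (SD, n = 5).

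Xrcc1 (chromosome 7, 24546289 to 24573440) had 82.9, 91.7, 53.3, 63.25 and 70.8 TPM in WT 1 to WT 5 and 78.3, 80.2, 81.6, 64.2 and 59.4 TPM in cKO 1 to cKO 5. The genotypes overlapped and the log2 difference was -0.07 (95% interval -0.26 to 0.11; limma adjusted p = 1.00). The 5 libraries of litter 1 held the 5 highest values.

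**Figure D4:**
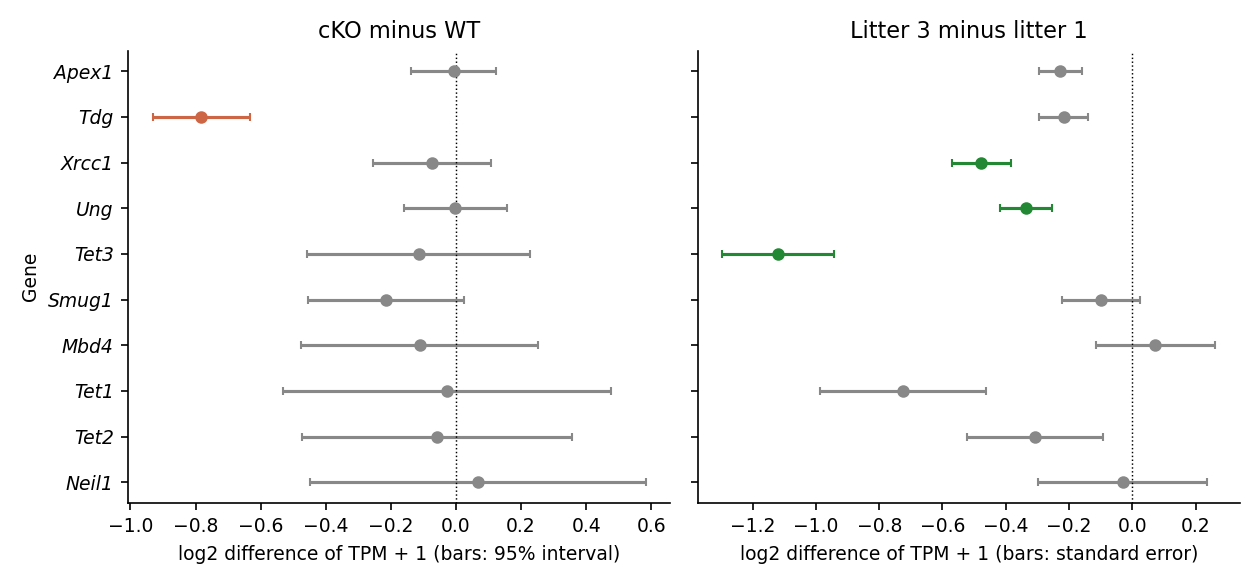
Log2 differences of TPM + 1 for the 10 genes, cKO minus WT on the left (bars: 95% interval; orange: called) and litter 3 minus litter 1 on the right (bars: standard error; green: litter called in an F test). Tdg at -0.78 is the one gene called between genotypes, and Tet3, Xrcc1 and Ung are called between litters.

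Litter is given as the batch in the labels, and more of these genes were called between litters than between genotypes. Tet3, Xrcc1 and Ung were called in a limma F test of litter, 3 of 10 genes, all lower in litter 3 than in litter 1. Adjusted p-values printed beside a difference between litters 3 and 1 are of this F test over all litters, not of that contrast. In the same test 21.5% of all genes tested were called, 17.8% being lower in litter 3, so the share among the 10 genes is near the background. Tet3 had a mean of 36.5 TPM in litter 1, 16.5 in litter 3 and 26.5 in litter 5, a log2 difference of -1.12 between litters 3 and 1 (SE 0.18; limma adjusted p = 0.0111). Xrcc1 had means of 82.9, 60.3 and 65.1 TPM (-0.48, SE 0.09; limma adjusted p = 0.0156), and Ung of 56.4, 44.5 and 54.3 TPM (-0.34, SE 0.08; limma adjusted p = 0.0361). The call of Ung was lost when any single library of litters 1 or 3 was left out (adjusted p from 0.0505 to 0.139), and that of Xrcc1 without WT 2 (0.0568). After quantile normalisation, which evens out the distributions of the libraries, the log2 difference was -0.90 for Tet3 (limma adjusted p = 0.017), -0.27 for Xrcc1 (0.0580) and -0.12 for Ung (0.513), and Tet3 alone was called.

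The other 7 genes were not called between litters. Tet1 had means of 10.9 TPM in litter 1 and 6.19 in litter 3 (log2 difference -0.72, SE 0.26; limma F test adjusted p = 0.144), Apex1 of 297 and 254 (-0.23, SE 0.07; 0.0684), and Tdg, with genotype in the fit, a log2 difference of -0.22 (SE 0.08; 0.135). For the contrast of litter 3 with litter 1 alone, the limma adjusted p was 0.0295 for Apex1, under 0.05. It was 0.0560 for Tdg and 0.0581 for Tet1. Mbd4 at 0.07 was the one gene with a positive value. The median over all genes tested was -0.16, below which lay Tet3, Tet1, Xrcc1, Ung, Tet2, Apex1 and Tdg.

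Long transcripts as a class were lower in litter 3, and the TET genes have the longest transcripts of the 10. The longest annotated transcripts of Tet1, Tet3 and Tet2 have 14369, 10904 and 9179 bases, whereas those of Ung and Xrcc1 have 3099 and 2528. Among tested genes with transcripts of at least 8000 bases, 39.1% were called lower in litter 3, with a median log2 difference of -0.55, against 8.78% and -0.03 among those of 1000 to 3000 bases. An index was formed for each library as the median log2 deviation of the long transcripts minus that of the short ones. It was 0.24, 0.19, -0.37, -0.28 and 0.07 in WT 1 to WT 5 and 0.26, -0.03, 0.38, -0.21 and -0.30 in cKO 1 to cKO 5. The libraries with the lowest values, WT 3, cKO 5, WT 4 and cKO 4, were also the 4 libraries with the least Tet3. Its part in the litter differences of the TET genes was not tested, and litter cannot be told apart from anything else that differed between the litters, such as preparation or developmental stage.

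**Figure D5:**
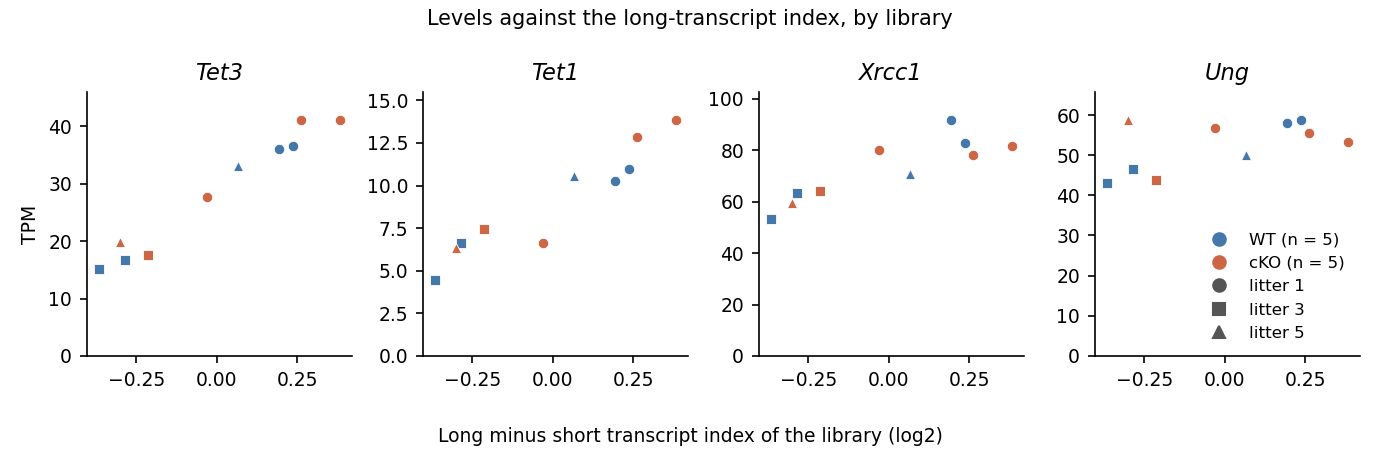
TPM of Tet3, Tet1, Xrcc1 and Ung in each library against the long minus short transcript index of that library (log2), with WT in blue, cKO in orange and the litter by symbol. The 4 libraries with an index of -0.21 or lower hold the 4 lowest Tet3 values. Among these 4, WT 3, cKO 4 and WT 4 hold the lowest Ung values of all libraries (43.0, 43.8 and 46.6 TPM). The last, cKO 5, has the highest Ung value (58.7 TPM, as in WT 1).

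No gene was called for a different genotype effect in litter 1 than in litters 3 and 5. In limma 0 of 13833 genes were called, 687 had an unadjusted p under 0.05, and none of the 10 genes was among those. For Tdg the difference between the genotype effects was -0.02 (SE 0.14).

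The rest of the pathway showed no call between genotypes. Of 6 other DNA glycosylases 0 were called, 2 were higher and 4 lower in cKO, with a median log2 difference of -0.08. Nthl1, which removes oxidised pyrimidines, had 10.9 ± 2.11 TPM in WT and 13.0 ± 2.19 TPM in cKO, and Neil3, a glycosylase of proliferating cells, 9.04 ± 1.99 and 7.90 ± 1.19 (SD, n = 5). Of 15 other base excision repair factors 0 were called, 5 were higher and 10 lower, with a median of -0.02. Parg, which removes poly(ADP-ribose) chains, had 40.4 ± 5.53 TPM in WT and 34.2 ± 3.63 TPM in cKO, a log2 difference of -0.28 (SE 0.10; limma unadjusted p = 0.0139, adjusted p = 1.00). Apex2, a relative of Apex1, had 14.1 ± 1.54 and 16.5 ± 1.58 TPM.

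Of 13 genes for TET cofactors and regulators 0 were called, 4 were higher and 9 lower (median log2 difference -0.03). Dcaf1, a substrate receptor of a ubiquitin ligase that modifies TET proteins, had 35.4 ± 4.92 TPM in WT and 31.5 ± 1.79 TPM in cKO, and Gadd45b, a member of the GADD45 family linked to demethylation, 7.95 ± 1.51 and 6.63 ± 2.69 (SD, n = 5). Of 9 genes for TDG partners and the SUMO (small ubiquitin-like modifier) pathway 0 were called, 5 were higher and 4 lower (median 0.01). Crebbp, an acetyltransferase that binds TDG, had 15.3 ± 5.03 and 16.4 ± 7.23 TPM, and Rnf4, a ubiquitin ligase that recognises SUMO chains, 109 ± 14.6 and 109 ± 10.2. Of the genes for proteins that bind 5-hydroxymethylcytosine and for deaminases, 5 passed the filter and 0 were called, 3 being higher and 2 lower (median 0.02). Uhrf2 had 58.5 ± 10.8 and 55.5 ± 8.98 TPM and Apobec3 4.21 ± 1.23 and 4.84 ± 1.40, while the deaminase genes Apobec1 and Apobec2 did not pass the filter.

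Between litters, 9 genes of these lists were called by limma, 8 of them lower in litter 3 than in litter 1. The base excision repair factors among them were Lig1, the DNA ligase of replication and long-patch repair (log2 difference -0.57), Parp1, the sensor of strand breaks (-0.59), the flap endonuclease Fen1 (-0.40) and Tdp1 (-0.40). The TET regulators Cxxc5 (-0.39) and Usp7 (-0.70) and the TDG partners Rnf4 (-0.32) and Crebbp (-0.94) were lower as well, and Sumo3 was higher (0.19). By list the calls were 4 of 15 repair factors, 2 of 13 TET regulators, 3 of 9 TDG partner and SUMO genes, 0 of 6 glycosylases and 0 of 5 binding proteins and deaminases, beside the 21.5% of all genes tested. Marker levels of several cell types also differed between litters 1 and 3 without overlap. Summed over 8 genes each, apical progenitor markers had 3087 to 3525 TPM in litter 1 and 2403 to 2628 in litter 3, and neuron markers 1139 to 1531 and 805 to 972. Mesenchyme markers ran the other way, with 207 to 325 TPM in litter 1 and 458 to 1027 in litter 3. Summed markers of the ventral telencephalon, of the choroid plexus, and of microglia and macrophages overlapped between these litters. The share of all genes tested that did not overlap between litters 1 and 3 was not counted. In litter 5, cKO 5 had 2495 TPM of apical progenitor markers and 792 of neuron markers, against 2934 and 1503 in WT 5. The globin share of the total and the long-transcript index differed between litters 1 and 3 as well. The part of these marker levels, of globin and of the index in the litter differences of Tet3, Xrcc1, Ung and the pathway genes was not tested.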

How the data were processed

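RNA-seq of 10 cortex libraries was used. The authors deposited TPM per gene, and cutadapt, featureCounts, DESeq2 and mm10 are named in the submitters' processing notes without roles. The aligner, the TPM tool, the strand setting and the treatment of reads that match several places are not given in the sources used here. The authors also deposited a table of 7 genes that, per the file headers, gives for each gene a score from their test, an adjusted p-value, and a fold change with its standard error. The authors do not state the base of that fold change in the deposited file, and it was taken as log2.

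Genes with at least 1 TPM in at least 5 libraries were kept (13833). Values were transformed as log2(TPM + 1), which understates differences of genes with low TPM, and fitted in limma 3.58.1 (R 4.3.3) with litter and genotype, empirical Bayes moderation with a trend, two-sided tests and 6 residual degrees of freedom. Litter was tested by the F test of its terms, and the genotype effect in litter 1 against litters 3 and 5 as an interaction. P-values were adjusted by Benjamini-Hochberg over all genes tested and called under 0.05, and the fit was tested on simulated data. Shares and sums of Tdg and its copies were compared by exact permutation tests over 252 splits and over 60 arrangements within litters. All p-values refer to the spread among single animals from 3 litters. Depth is unknown, so no counting interval is given.

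Copies were found with blastn 2.17.0 among GENCODE M21 transcripts (GRCm38), with at least 90% identity over at least 50% of either sequence. Another 93 matching genes are in neither table. All sequences and coordinates are from that annotation. Columns without a library name (5, with 4 values each) were not used.

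Named genes are the 10 genes, their copies, Zbtb7a, the called genes of each pathway list or else the 2 with the smallest p, the 3 neighbours of Tdg with the smallest p, and the genes most like and least like Tdg. The genes called between litters in the pathway lists were named after their values were seen. The 10 genes and all lists were chosen with earlier results of these data known. The alternatives were other pseudocounts, filters, scalings, covariates, variance settings and left-out libraries.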

Additional observations from a re-analysis of the deposited data

How the results depend on the processing

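The fall of Tdg kept its direction in all 23 alternative settings and was called in 20 of them. The exceptions were the replicate block in place of litter (-0.74, adjusted p = 0.279), litter 1 alone and litters 3 and 5 alone, so under each of these 0 of the 10 genes were called between genotypes, and leaving out single libraries gave counts of 1 throughout. Leaving out single libraries gave Tdg -0.83 to -0.73 (limma adjusted p from 0.00318 to 0.0208). Without WT 5 or cKO 5 the remaining library of litter 5 is taken up by the litter term.

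Replicate numbers did not pair the libraries. The deviations of same-numbered libraries correlated at 0.268, 0.0772, -0.291, 0.303 and -0.168, and 1 of 5 WT libraries correlated best with its own number. With the replicate block and litter together, Tdg kept its call and 0 of the 10 genes were called between litters. The count called between litters was also 1 with quantile normalisation and 0 with litters 3 and 5 alone, and 1 to 3 when a library was left out, with 1 only without WT 2. The interaction count was 0 in the 16 alternative settings in which it was computed, and the count of pathway genes called between genotypes was 0 in all 23.

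The share of Tdg differed by -43.3 points in litter 1 and by -41.5 in litters 3 and 5 (exact permutation p = 0.1 in each, the smallest possible there), and by -42.7 to -42.1 when a library was left out. The summed TPM of Tdg and its copies differed by 12.1 to 27.3 without single libraries, and by -52.1 when weighted by length.

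Genes not called between genotypes changed sign in some settings. Without litter, or with the replicate block in its place, the log2 difference was 0.12 for Tet1, 0.0036 for Tet2, 0.11 for Tet3, 0.066 for Ung, 0.039 for Apex1, 0.021 for Xrcc1, 0.050 for Crebbp and 0.0026 for Rnf4. With array weights it was 0.096 for Tet1, 0.051 for Tet2 and 0.012 for Tet3. With Xist as a covariate it was 0.076 for Ung, 0.041 for Apex1 and -0.080 for Apobec3. Ung was at 0.0069 after quantile normalisation and 0.0077 with block and litter. In litters 3 and 5 alone the values were 0.080 for Ung, 0.0040 for Apex1, 0.17 for Gadd45b and 0.013 for Uhrf2, and in litter 1 alone -0.15 for Neil1 and 0.016 for Crebbp. Leaving out single libraries gave -0.19 to 0.14 for Tet1, -0.15 to 0.030 for Tet2, -0.21 to 0.044 for Tet3, -0.063 to 0.020 for Ung, -0.16 to 0.20 for Neil1 and -0.038 to 0.017 for Apex1. The cause of these changes was not tested.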
